A study of Mus musculus with 12 samples.

Results

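DNA methylation in mammals is written and kept by a small set of proteins, and the 6 genes described here encode most of them: Dnmt1, Uhrf1, Uhrf2, Dnmt3a, Dnmt3b and Dnmt3l. They were taken by name from the 3 developmental stage tables, where all 6 have a row among 22552, and from the Tet1 knockout table, where 5 have a row among 16394 and Dnmt3l has none. All RNA came from primordial germ cells (PGCs) of C57BL/6 mouse embryos, from which eggs and sperm later form. Tet1-KO cells, of genotype Tet1 -/- (no Tet1 from either allele), came from embryonic day 13.5 (E13.5, 2 libraries) and were set against wild-type E13.5 cells (3 libraries). Other wild-type cells came from E9.5 (2 libraries), E11.5 (2 libraries) and a further E13.5 group, E13.5m (3 libraries). The stage tables also hold a group named E13.5f, which the series design lists as triplicates and no sample title carries; the sources used here do not spell out m and f. How the Tet1 allele was made and how the cells were sorted is not given in the sources used here.

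DNMT1 copies methylation onto the new DNA strand after replication, and UHRF1 binds hemimethylated CpG sites and histone H3 to bring DNMT1 there. UHRF2 is a close relative of UHRF1 that does not take its place in maintenance in mouse embryonic stem cells. DNMT3A and DNMT3B place methylation on unmethylated DNA (de novo methylation), and DNMT3L, which has no catalytic activity of its own, stimulates them and is needed for methylation in male germ cells. Mouse PGCs lose nearly all of their DNA methylation between migration and colonisation of the gonad, a period in which low UHRF1 and low de novo methyltransferase levels have been described.

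Each level below is an FPKM value (fragments divided by transcript length and library size), so levels can be set against each other between genes. The authors deposited 1 pooled FPKM value per group and none per library. No spread between libraries can therefore be shown for a level, and sequencing depth is unknown. Log2 ratios carry the standard error (SE) that the authors' Cuffdiff test implies. Whether the libraries within a group had separate embryos as their source is not labelled. The p-values rest on the variance that Cuffdiff estimated, which need not be the spread of each gene between libraries. Any library spread in it may be technical.

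The libraries carried germ cell RNA in every group. All 10 germ cell markers were at 1 FPKM or more in each of the 6 pooled groups, led by Dppa3 or Dazl. The summed level of 10 gonadal soma markers was between 0.423 and 24.96 FPKM, highest at E13.5m, and 9 of them were listed at 0 at E9.5. Of 6 endothelial markers, the sum was 10.5 FPKM at E11.5 and between 0.214 and 1.15 FPKM in the other groups, where 4 of them are listed in the knockout table. The 8 blood markers summed to 26.8 FPKM at E11.5 and 1887 FPKM at E9.5, with Hbb-y at 9.37 FPKM at E11.5 and 756 FPKM at E9.5 and Ptprc listed at 0 in both. Sparc held most of the mesenchyme sum, and Epcam, which germ cells also express, most of the epithelium sum. In bulk RNA, fewer cells of a type and less RNA per cell cannot be told apart.

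Many of the stage tests on these genes have no result. Cuffdiff marked the test as failed for Dnmt1 and Uhrf1 in all 3 stage tables and for Dnmt3a and Dnmt3b in both E13.5 tables. Failed tests made up 2.18% of genes at 5 FPKM or more in the E9.5 and E11.5 table, 10.7% in the E13.5m table and 10.7% in the E13.5f table. Levels of these genes are given as descriptions, with no test. In the knockout table all 5 listed genes were tested.

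The promoters of the maintenance genes held matches to a motif of E2F factors, which drive genes of DNA replication. RefSeq promoter windows (build GRCm38.p6, 250 bases before to 50 after a start) were found for all 6 genes, 13 windows in all. The motifs searched were TTTCGCGC and TTTGGCGC on both strands. They were in 2 of the 6 genes, Uhrf1 and Dnmt1, and in 0.929% of the 27025 genes with a window. By window, they were in 2 of the 13 and in 0.813% of all 32851. Both motifs contain a CpG, and each of these 2 windows held 33 CpG against a median of 7 over all windows. No background of like CpG content was counted. The 30 bases around each match are printed 5′ to 3′ with the match in capitals; the first Dnmt1 site is on the opposite strand.
Uhrf1, chr17:56304117-56304146, plus strand: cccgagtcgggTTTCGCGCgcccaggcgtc
Dnmt1, first site, chr9:20952824-20952853, minus strand: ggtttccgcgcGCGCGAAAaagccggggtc
Dnmt1, second site, chr9:20952574-20952603, minus strand: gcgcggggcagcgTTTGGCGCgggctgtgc
A match is a description of these letters and says nothing on binding.

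The windows also differed in CpG content, the target of the enzymes themselves. The CpG-richest window held 47 CpG for Dnmt3a, 33 for Dnmt1, 33 for Uhrf1, 30 for Dnmt3b and 28 for Uhrf2, against a median of 7 over all windows. The 3 Dnmt3l windows held 6, 4 and 3. The 100 bases before the start of Dnmt3b and Dnmt3l are shown for contrast, with each CpG in capitals.
Dnmt3b, chr2:153649349-153649448, plus strand: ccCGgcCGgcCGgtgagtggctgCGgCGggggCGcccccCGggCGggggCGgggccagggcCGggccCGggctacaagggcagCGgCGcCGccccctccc
Dnmt3l, chr10:78042187-78042286, plus strand: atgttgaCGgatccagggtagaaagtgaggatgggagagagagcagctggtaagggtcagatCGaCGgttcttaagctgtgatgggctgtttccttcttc
The Dnmt3b stretch holds 14 CpG and the Dnmt3l stretch 3. No methylation measurement was analysed here.

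Dnmt1 was among the well-expressed genes at every stage and varied least of the 6. Between the stage tables, the E11.5 values are the same up to a constant factor (0.870 from the E9.5 table and 0.976 from the E13.5m table to the E13.5f table), which puts all stages on 1 scale. On it, Dnmt1 stood at 20.2 FPKM at E9.5, 30.8 FPKM at E11.5, 25.3 FPKM at E13.5m and 30.3 FPKM at E13.5f. Its highest level was 1.53 times its lowest, and it was at or above at least 70.3% of the genes with any signal in every stage. The gene spans chromosome 9, 20711649 to 20764332 (build mm9), and gene-level values do not separate its oocyte and somatic first exons. The E11.5 over E9.5 log2 ratio of Dnmt1 was 0.61, a ratio reached by 30.7% of the 9685 tested genes with 1 FPKM or more at both stages.

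**Figure D1:**
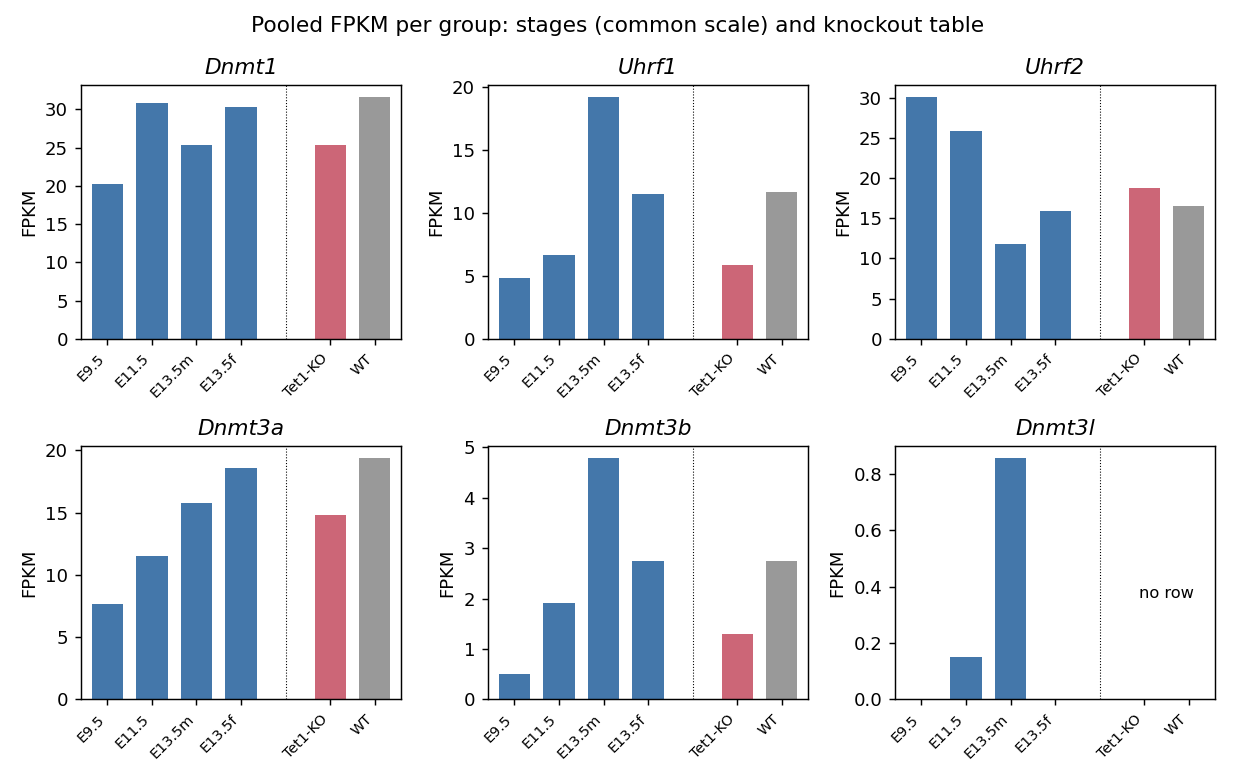
Pooled FPKM (y axis, linear, own range per panel) of the 6 genes in each group; left of the dotted line the 4 wild-type stage groups on the common scale, right of it Tet1-KO and wild type from the knockout table. Each bar is 1 pooled value without error; Uhrf1 is highest at E13.5m with 19.2 FPKM, and Uhrf2 is highest at E9.5 with 30.1 FPKM.

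Uhrf1 and Uhrf2 had opposite orders of level over the stages. Uhrf1 (chromosome 17, 56442759 to 56462909) stood at 4.84 FPKM at E9.5, 6.69 FPKM at E11.5, 19.2 FPKM at E13.5m and 11.5 FPKM at E13.5f. Uhrf2 (chromosome 19, 30105002 to 30168214) stood at 30.1 FPKM at E9.5, 25.9 FPKM at E11.5, 11.7 FPKM at E13.5m and 15.9 FPKM at E13.5f. Uhrf1 was thus lowest and Uhrf2 highest at E9.5, and E13.5m was the reverse. The Uhrf2 level was 6.21 times that of Uhrf1 at E9.5, 3.87 times at E11.5, 0.610 times at E13.5m and 1.38 times at E13.5f. For each Dnmt1 level of 1, the Uhrf1 level was 0.240 at E9.5, 0.217 at E11.5, 0.759 at E13.5m and 0.379 at E13.5f. These are ratios of pooled values with no error and no test.

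The de novo enzyme genes stood lowest at E9.5. Dnmt3a (chromosome 12, 3806979 to 3914443) was at 7.68 FPKM at E9.5, 11.5 FPKM at E11.5, 15.8 FPKM at E13.5m and 18.6 FPKM at E13.5f. Dnmt3b (chromosome 2, 153475189 to 153513466) was lower in each group, at 0.513 FPKM at E9.5, 1.91 FPKM at E11.5, 4.796 FPKM at E13.5m and 2.74 FPKM at E13.5f. Dnmt3a was 15.0 times Dnmt3b at E9.5, 6.01 times at E11.5, 3.29 times at E13.5m and 6.79 times at E13.5f. A related copy, listed in the reference as Dnmt3b-ps1 and also known as Dnmt3c, lies near Dnmt3b, and reads shared between them could not be told apart. Dnmt3l, the cofactor (chromosome 10, 77492775 to 77526360), was near the floor: listed at 0 at E9.5, 0.151 FPKM at E11.5, 0.858 FPKM at E13.5m and listed at 0 at E13.5f. Its locus overlaps that of Aire, listed at 0 in all 4 groups; whether counting used strand is not given, and the loci of the other 5 genes overlap no other listed locus.

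**Figure D2:**
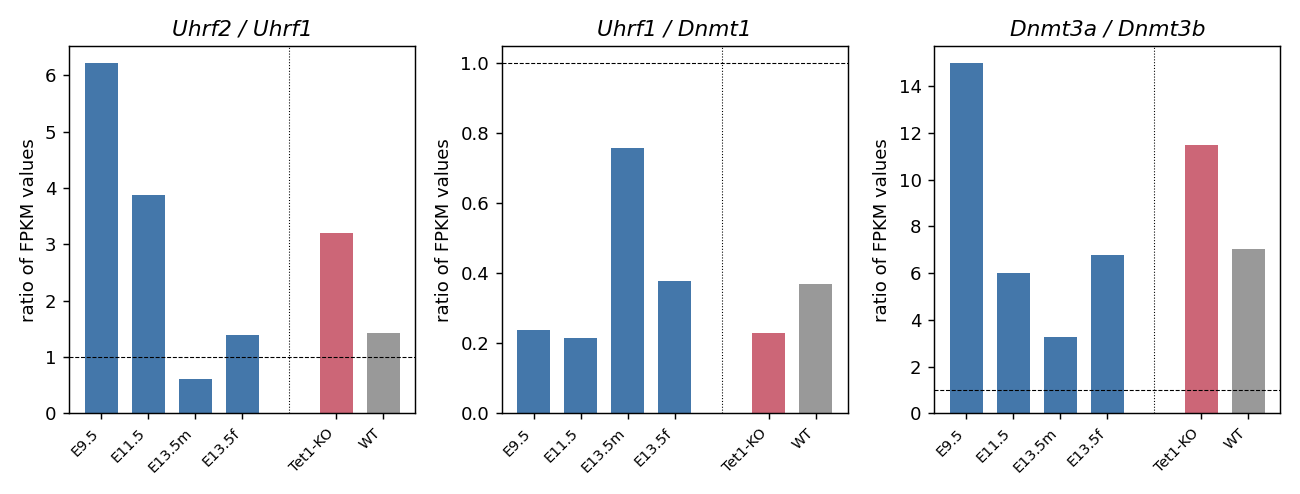
Ratio of the pooled FPKM values of 2 genes in the same group (y axis, linear) for Uhrf2 over Uhrf1, Uhrf1 over Dnmt1 and Dnmt3a over Dnmt3b; stage groups in blue, Tet1-KO in red and its wild type in grey, dashed line at 1. Uhrf2 exceeds Uhrf1 except at E13.5m, where the ratio is 0.610.

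From E9.5 (migrating cells) to E11.5 (cells in the genital ridge), none of the 3 genes with a completed test passed. Dnmt3a stood at 13.2 FPKM at E11.5 and 8.83 FPKM at E9.5, a log2 ratio of 0.58 ± 0.24 (SE) with a Cuffdiff adjusted p of 0.145. Dnmt3b stood at 2.20 FPKM at E11.5 and 0.590 FPKM at E9.5, a log2 ratio of 1.90 ± 0.98 (SE) with a Cuffdiff adjusted p of 0.255. Uhrf2 stood at 29.8 FPKM at E11.5 and 34.6 FPKM at E9.5, with a log2 ratio of -0.22 ± 0.50 (SE). Their 95% intervals ran from 0.11 to 1.06 for Dnmt3a, from -0.02 to 3.81 for Dnmt3b and from -1.19 to 0.76 for Uhrf2. Over all genes the authors' table called 5.63% of 12904 tests (3.71% higher and 1.92% lower), and 19.8% had an unadjusted p under 0.05, as 1 of these 3 did (Dnmt3a).

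All genes that reached 1 FPKM in each of the 2 groups had a median log2 ratio of 0.32. Relative to it Dnmt3a was at 0.26 and Dnmt3b at 1.58, and none of the 3 passed, where 4.89% of all genes did. The blood marker sum differed with the stage, as given above, and its part in these values was not tested.

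From E11.5 to E13.5m, Uhrf1 and Dnmt3b had the widest ratios among the genes above 1 FPKM, and neither has a test. Uhrf1 stood at 19.7 FPKM at E13.5m and 6.86 FPKM at E11.5, a log2 ratio of 1.52 that 3.36% of 8980 tested genes reached. Dnmt3b stood at 4.91 FPKM at E13.5m and 1.961 FPKM at E11.5, a log2 ratio of 1.33 that 4.55% reached. Dnmt3a had a log2 ratio of 0.46 and Dnmt1 of -0.28, also without a test. Of the 2 completed tests, neither passed. Uhrf2 stood at 12.0 FPKM at E13.5m and 26.5 FPKM at E11.5, a log2 ratio of -1.14 ± 0.50 (SE), with an unadjusted p of 0.0230 and a Cuffdiff adjusted p of 0.194. Dnmt3l stood at 0.879 FPKM at E13.5m and 0.155 FPKM at E11.5, a log2 ratio of 2.50 ± 1.55 (SE) with an adjusted p of 0.413. The authors' table called 4.88% of 12311 tests (2.94% higher and 1.94% lower), and 17.2% had an unadjusted p under 0.05, as 1 of these 2 did (Uhrf2). The median ratio of all genes was 0.02, and relative to it 5.36% of genes and neither of these 2 passed. Among 10 gonadal soma markers, 4 were at 1 FPKM or more at E13.5m and none at E11.5. Of the 8 tested, Amh and Rspo1 were called higher, and Foxl2 was listed at 0 in both groups. On the common scale the endothelial sum was 0.819 FPKM at E13.5m and 10.5 FPKM at E11.5. Esam was called lower, and Tie1 and Emcn were listed at 0 in both. Sparc and Pax8 were called lower and Krt19 higher, and no blood marker was called. The part of these markers in the values was not tested.

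From E11.5 to E13.5f no ratio of the genes above 1 FPKM exceeded 0.78 in size. Uhrf1 stood at 11.5 FPKM at E13.5f and 6.69 FPKM at E11.5, a log2 ratio of 0.78 that 22.3% of 9096 tested genes reached. The log2 ratio was 0.69 for Dnmt3a, 0.52 for Dnmt3b and -0.03 for Dnmt1, none with a completed test. Uhrf2 had the 1 completed test and did not pass it, at 15.9 FPKM at E13.5f and 25.9 FPKM at E11.5, a log2 ratio of -0.70 ± 0.49 (SE) with a Cuffdiff adjusted p of 0.373 and an unadjusted p of 0.154. The authors' table called 12.0% of 12448 tests (9.34% higher and 2.68% lower), and 26.5% had an unadjusted p under 0.05. The median ratio of all genes was 0.19, so that relative to it Uhrf1 was at 0.59, Dnmt3b at 0.33 and Dnmt1 at -0.22. Uhrf2 did not pass relative to it, where 11.1% of all genes did. The blood marker sum was 3.86 FPKM at E13.5f and 26.8 FPKM at E11.5, with Hba-x called lower and Ptprc listed at 0 in both. The endothelial sum was 1.15 FPKM at E13.5f and 10.5 FPKM at E11.5, with Esam and Tek called lower and Tie1 and Emcn listed at 0 in both. The epithelial sum was 342 FPKM at E13.5f and 224 FPKM at E11.5; Krt18, also found in germ cells, was called higher and Pax8 lower. The part of these markers in the values was not tested. These 2 E13.5 comparisons share the E11.5 libraries.

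Between E13.5m and E13.5f, a difference could be tested for Uhrf2 only. On the common scale its log2 difference, E13.5m minus E13.5f, was -0.44 ± 0.70 (SE), with a normal two-sided p of 0.532 and a Benjamini-Hochberg adjusted p of 0.99996 over 10677 genes, of which 0.169% passed and 3.76% had an unadjusted p under 0.05. The 95% interval of that difference ran from -1.82 to 0.94. The shared E11.5 values cancel in the difference but enter both SEs, so this SE and interval are too wide and the test is conservative for all genes. Uhrf1 in E13.5m was 1.67 times its E13.5f level. Dnmt3b in E13.5m was 1.75 times its E13.5f level. Dnmt1 and Dnmt3a were 0.836 and 0.848 times their E13.5f levels in E13.5m. Libraries labelled E13.5m came from 400 to 5000 cells. If the E13.5f column holds the wild-type libraries of the knockout table, which came from 500 to 2000 cells, the m and f groups and the library sets cannot be told apart. In the knockout table, wild-type levels were 1.01 to 1.04 times the E13.5f column over the 5 genes in both tables. If the libraries are the same, opposite changes in Tet1-KO and at E13.5f rest on the same values and are not separate observations.

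**Figure D3:**
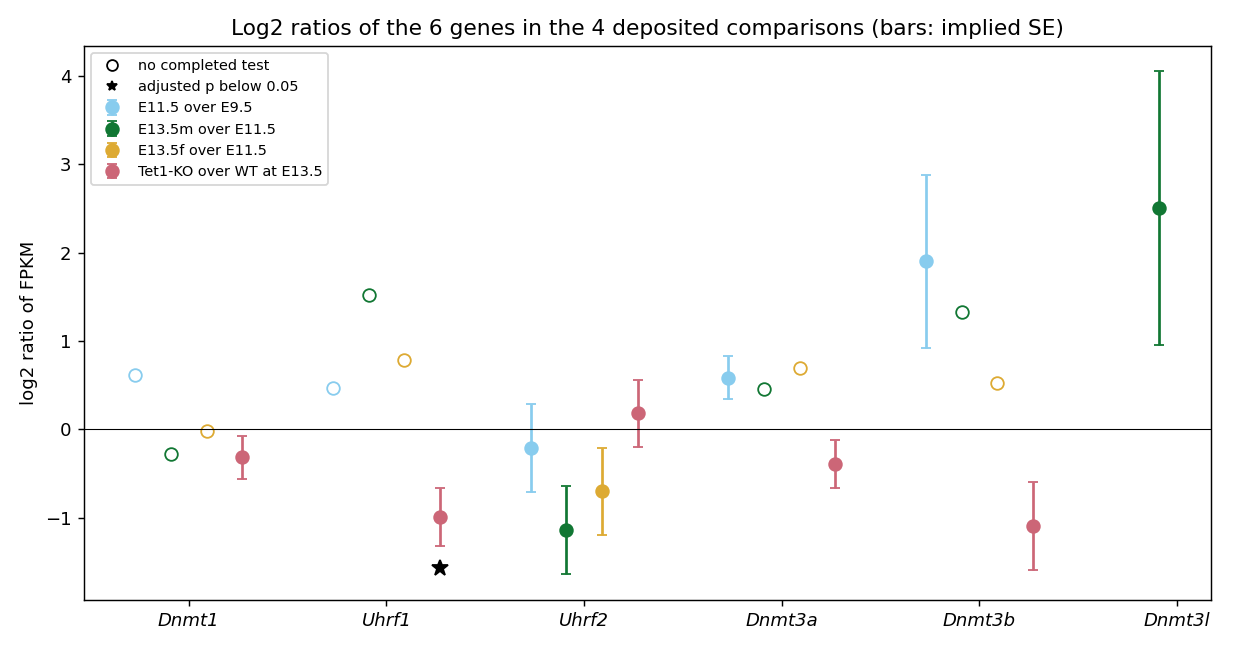
Log2 ratio of FPKM (y axis) of each gene in the 4 deposited comparisons, tested over control or later over earlier group; filled points have a completed Cuffdiff test and bars show 1 implied SE, open points have no completed test and no error. The star marks Uhrf1 in Tet1-KO, the 1 call, at -0.99.

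Cells without Tet1, an oxidase gene of the demethylation route, had the 1 called difference among the 6 genes. Tet1 itself stood at 0.218 FPKM in Tet1-KO and 6.36 FPKM in wild type, with a Cuffdiff FDR of 1.55e-10. Uhrf1 fell to 5.86 FPKM in Tet1-KO, against 11.7 FPKM in wild type, a log2 ratio of -0.99 ± 0.33 (SE) and a Cuffdiff FDR of 0.0433. This was 1 call among 5 tests, where 6.16% of all 16394 tests were called and 5.48% were called lower and 0.677% higher. The median log2 ratio of all genes was -0.38. Relative to that median the Uhrf1 ratio was -0.61 ± 0.33 (SE), with an adjusted p of 0.348, and no longer passed; 3.50% of all genes passed on that scale. Of the 10325 genes with at least 1 FPKM on both sides, 12.8% had a ratio as low as that of Uhrf1.

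Dnmt3b had a similar ratio with a wider error. It stood at 1.29 FPKM in Tet1-KO and 2.75 FPKM in wild type, a log2 ratio of -1.10 ± 0.50 (SE), an unadjusted p of 0.0283 and an FDR of 0.172. With Uhrf1, it made 2 of 5 genes with an unadjusted p under 0.05, against 21.4% of all tests. Dnmt3a stood at 14.8 FPKM in Tet1-KO and 19.4 FPKM in wild type, a log2 ratio of -0.39 ± 0.27 (SE) and a Cuffdiff FDR of 0.393. Dnmt1 stood at 25.4 FPKM in Tet1-KO and 31.6 FPKM in wild type, a log2 ratio of -0.32 ± 0.24 (SE) and a Cuffdiff FDR of 0.438. Relative to the median of all genes, Dnmt1 was at 0.06 and Dnmt3a at -0.01, so that the sign of Dnmt1 turned.

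Uhrf2 was the 1 gene of the 5 with a positive ratio in the knockout. It stood at 18.7 FPKM in Tet1-KO and 16.6 FPKM in wild type, a log2 ratio of 0.18 ± 0.38 (SE) and a Cuffdiff FDR of 0.860, and a 95% interval from -0.57 to 0.93. Uhrf2 was 3.20 times Uhrf1 in Tet1-KO and 1.42 times in wild type. Dnmt3a was 11.5 times Dnmt3b in Tet1-KO and 7.05 times in wild type. The order of levels was Dnmt1, Uhrf2, Dnmt3a, Uhrf1 and Dnmt3b in Tet1-KO, and Dnmt1, Dnmt3a, Uhrf2, Uhrf1 and Dnmt3b in wild type. None of 7 listed gonadal soma markers was called, and their sum was 8.63 FPKM in Tet1-KO and 5.45 FPKM in wild type; their part in these values was not tested.

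Genes that work with the 6 were looked at as lists. Of the maintenance cofactors, which include Pcna, the clamp that carries DNMT1 at replication forks, and Hells, a chromatin remodeller needed for methylation, few were called. In Tet1-KO 1 of 10 tested cofactors fell and none rose, where 5.48% of all tests were called lower. An unadjusted p under 0.05 was found for 3 of the 10, against 21.4% of all tests. Their median log2 ratio was -0.43 against -0.38 for all genes. The called gene was Cdca7l, a relative of the HELLS partner CDCA7, at 57.5 FPKM in Tet1-KO and 113 FPKM in wild type. Its log2 ratio was -0.98 ± 0.31 (SE) with a Cuffdiff FDR of 0.0331, and relative to the median of all genes it did not pass. The same gene rose to 108.9 FPKM at E13.5f, against 49.9 FPKM at E11.5, a log2 ratio of 1.13 ± 0.41 (SE). It was the 1 call among 9 cofactors there, where 9.34% of all tests were called higher, and it did not pass relative to the median either. The E13.5f and wild-type values may come from the same libraries, as given above, and then this rise and the fall in Tet1-KO are not separate observations. At E13.5m 0 of 9 cofactors were called by Cuffdiff, with 1 at an unadjusted p under 0.05, against 4.88% and 17.2% of all tests. From E9.5 to E11.5 1 of 10 was called: 2810417H13Rik, named Pclaf in the reference, whose protein binds PCNA and helps bring DNMT1 to newly made DNA, fell to 16.0 FPKM at E11.5, against 50.6 FPKM at E9.5. Over all tests 1.92% were called lower there and 19.8% had an unadjusted p under 0.05, as 4 of the 10 cofactors did.

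Replication genes formed a list of S phase, when Dnmt1 and Uhrf1 are normally transcribed. Of 20 tested S phase genes in Tet1-KO, 1 fell and 0 rose, near the 5.48% of all tests called lower, and their median log2 ratio was -0.41 against -0.38 for all genes. In either direction, 8 of the 20 had an unadjusted p under 0.05 by Cuffdiff, against 21.4% of all tests. The called gene was Cdc45, of the replicative helicase, at 118 FPKM in Tet1-KO and 215 FPKM in wild type. Relative to the median of all genes Cdc45 did not pass, and Mcm4, of the same helicase, passed as higher in Tet1-KO and as lower at E13.5f. These Mcm4 results may rest on shared libraries, as given above for E13.5f. In the stage tables the Cuffdiff count was 0 of 20 from E9.5 to E11.5, 0 of 18 to E13.5m and 0 of 18 to E13.5f, with 1, 3 and 1 at an unadjusted p under 0.05. In the same order, 5.63%, 4.88% and 12.0% of all tests were called, and 19.8%, 17.2% and 26.5% had an unadjusted p under 0.05. The S phase median log2 ratio was 0.47 for E11.5 over E9.5 (0.32 for all genes), -0.33 for E13.5m over E11.5 (0.02 for all genes) and 0.10 for E13.5f over E11.5 (0.19 for all genes).

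Among 16 regulators of the methyltransferases, 1 fell in Tet1-KO, 0 rose, and 0 were called in any stage table (of 16, 14 and 14 tested, with 3, 3 and 1 at an unadjusted p under 0.05). Over all genes 5.48% of tests were called lower in Tet1-KO, so that the count there is near the background. In the stage comparisons 5.63%, 4.88% and 12.0% of all tests were called, and 19.8%, 17.2% and 26.5% had an unadjusted p under 0.05. The called gene was Ehmt1, a histone H3 lysine methyltransferase gene, at 7.74 FPKM in Tet1-KO and 15.3 FPKM in wild type. Relative to the median of all genes Ehmt1 did not pass, while Kdm1a passed as higher in Tet1-KO and Prdm1 as lower at E11.5. Dppa3, whose protein blocks UHRF1 in the oocyte, and Prdm14, a repressor of Dnmt3b in PGCs, were named after their values were seen. Dppa3 stood at 2823 FPKM at E13.5m and 1349 FPKM at E11.5, a log2 ratio of 1.07 ± 0.43 (SE) with an adjusted p of 0.135 by Cuffdiff. Prdm14 stood at 36.8 FPKM in Tet1-KO and 44.1 FPKM in wild type, and was not called in any of the 4 tables.

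Genes of demethylation, which removes what the 6 genes write, included Parp1 of the DNA repair pathway. Parp1 rose to 139 FPKM in Tet1-KO, against 69.7 FPKM in wild type, and fell to 77.2 FPKM at E13.5m, against 195 FPKM at E11.5, and to 66.4 FPKM at E13.5f, against 190.0 FPKM at E11.5. The wild-type and E13.5f values of Parp1 may come from the same libraries, as given above. Of 12 tested members in Tet1-KO 1 rose and 2 fell, where 0.677% of all tests were called higher and 5.48% lower. The falls were Tet1, the knocked-out gene itself, and Tet3, near the floor at 0.00894 FPKM in Tet1-KO and 0.261 FPKM in wild type. Of 12 tested at E13.5m 0 rose and 2 fell, Parp1 and Gadd45a, and of 11 at E13.5f 0 rose and 1 fell. Over all tests 1.94% were called lower at E13.5m and 2.68% at E13.5f. From E9.5 to E11.5 1 of 12 rose, where 3.71% of all tests were called higher. The gene was Ung, a uracil glycosylase gene, at 633 FPKM at E11.5 and 444 FPKM at E9.5. Relative to the median of all genes Ung did not pass.

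Genes that read methylation and genes that supply the methyl donor formed separate lists, and the methyl donor list is given for Tet1-KO and the E13.5 tables only. Cuffdiff called 0 of 7 methyl-CpG binding genes in Tet1-KO, and 0 of 6, 5 and 4 tested from E9.5 to E11.5, at E13.5m and at E13.5f, with 1 of all these tests at an unadjusted p under 0.05. It called 0 of 11 genes of S-adenosylmethionine supply in Tet1-KO, with 4 at an unadjusted p under 0.05, and 0 of 10 in each E13.5 table, with 0 at E13.5m and 1 at E13.5f. Over all tests 6.16% were called in Tet1-KO, 5.63% from E9.5 to E11.5, 4.88% at E13.5m and 12.0% at E13.5f. In the same order, 21.4%, 19.8%, 17.2% and 26.5% of all tests had an unadjusted p under 0.05. With so few genes per list, counts of 0 say little about them.

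The last list holds germline genes whose promoters are known to carry methylation in somatic cells. In Tet1-KO 12 of 20 tested members fell and 0 rose, where 5.48% of all tests were called lower and 0.677% higher. The median log2 ratio was -1.39 over the 19 members with at least 1 FPKM on both sides, against -0.38 for all such genes. Relative to the median of all genes 8 of 18 fell, where 3.50% of all genes passed in either direction. Brdt and Dazl, with a p listed as 0, gave no SE there. Taf7l, a germ cell subunit gene of TFIID, stood at 6.58 FPKM in Tet1-KO and 89.6 FPKM in wild type. From E9.5 to E11.5 14 of 18 rose and 0 fell, where 3.71% of all tests were called higher, and 12 of 17 rose relative to the median. At E13.5m 7 of 18 rose and at E13.5f 10 of 18 rose, with 0 falling in either, and the counts relative to the median were also 7 and 10. Over all tests 2.94% were called higher at E13.5m and 9.34% at E13.5f. The rises at E13.5f and the falls in Tet1-KO may share the same wild-type libraries, as given above. The list was chosen with these results known, so its counts are a description.

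**Figure D4:**
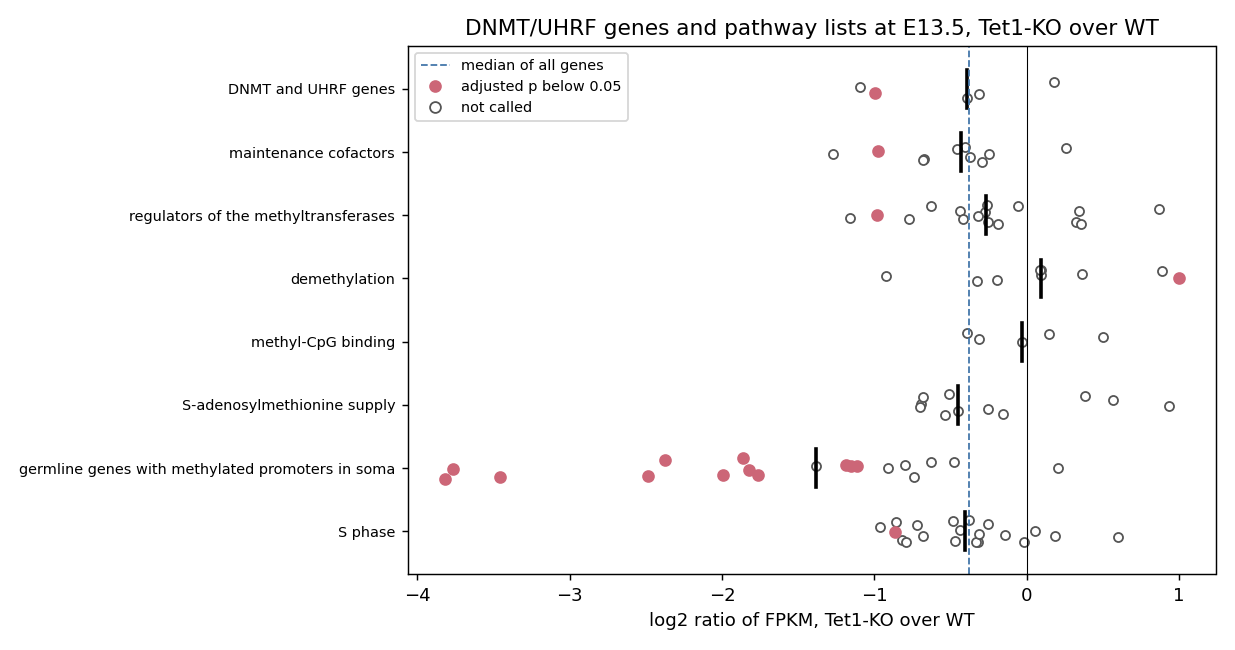
Log2 ratio of FPKM in Tet1-KO over wild type (x axis) for the DNMT and UHRF genes and the 7 lists, for genes with at least 1 FPKM on both sides; filled points passed the authors' test at an FDR of 0.05, black bars are medians and the dashed line is the median of all genes, -0.38. The bar of the DNMT and UHRF genes, at -0.39, lies close to that line, and the bar of the germline genes lies at -1.39.

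Genes with the most similar pattern were sought by the smallest root mean square difference of centred log2(FPKM + 1) profiles, over 4 pooled stage groups and 8949 genes at 5 FPKM or more in a group (8950 for Dnmt3b and Dnmt3l). The 3 nearest were Fbxl19, Tmem143 and Eif2b1 for Dnmt1, at 0.01 to 0.02. They were Snap47, Appl1 and A630007B06Rik for Uhrf1, at 0.11 to 0.12, and Ccdc14, C1galt1c1 and Fam129b for Uhrf2, at 0.03 to 0.04. Eif3g and Vps24 were among the 3 nearest for Dnmt3a, at 0.01 to 0.02, and the 3 nearest for Dnmt3b were Ooep, Snx1 and Mcart1, at 0.05 to 0.07. For Dnmt3l, at under 1 FPKM throughout, they were Lrp11, 5430416N02Rik and Prpsap1, at 0.03 to 0.06. The added 1 shrinks changes at low levels, so nearness to Dnmt3b or Dnmt3l does not mean a like fold change. Dnmt3b ran from 0.513 FPKM at E9.5 to 4.796 FPKM at E13.5m, and Snx1 from 44.9 to 155 FPKM. With a pseudocount of 0.1 in place of 1, 9 of the 18 genes found for the 6 were again among the 3 nearest. With 4 points per gene such likeness is a description only.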

How the data were processed

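RNA from 400 to 5000 PGCs (E9.5, E11.5, E13.5m) or 500 to 2000 PGCs (wild type and Tet1-KO at E13.5) was amplified with the SMARTer kit for Illumina sequencing, per the labels' protocols. Build mm9, TopHat 1.3.1 with Bowtie, and Cuffdiff (1.2.1 for the stages, 1.0.3 for the knockout) are named in the submitters' processing notes. Per the file headers, each gene has 1 FPKM value per group and, from the authors' test, a p-value with its q-value (FDR in the knockout table); the FDR exceeds 1 for 2182 genes. The test statistic is a score deposited by the authors. No value per library was used, and depth is unknown.

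The log2 ratio was computed from the 2 FPKM values, and its SE from the deposited statistic, or from the deviate of the p-value for Tet1-KO (11 genes with p listed as 0 have none). Calls are the authors' at 0.05 over completed tests. The difference of E13.5m and E13.5f counts E11.5 in both SEs, which makes its SE too wide. Scripts were tested on simulated data. The 6 genes and all lists were chosen with earlier results of these data known. Named genes were the 6, Tet1 and up to 4 called genes of a list by size of log2(FPKM + 1) change; a few results are not reported here. Results were computed again after centring on the median, at a threshold of 0.01, with p-values adjusted anew, with floors of 1 FPKM or 1 on the log2 ratio, and at a pseudocount of 0.1. Software was pandas 2.3.3 and scipy 1.17.1, under Python 3.11.15, with figures by matplotlib 3.10.9.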

Additional observations from a re-analysis of the deposited data

How the results depend on the processing

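The 1 call among the 6 genes, Uhrf1 in Tet1-KO, depended on the setting. The count of called genes in Tet1-KO was 0 at a threshold of 0.01, 0 with a minimum absolute log2 ratio of 1 and 0 after centring on the median of all genes, where the Uhrf1 ratio was -0.61 with an adjusted p of 0.348. It remained 1, Uhrf1, with the adjustment computed again (adjusted p 0.0442) and with a minimum of 1 FPKM (adjusted p 0.0323). The counts of 0 in the 3 stage tables and for E13.5m minus E13.5f were 0 under every alternative run. A threshold of 0.01 and a minimum log2 ratio of 1 only remove calls, so a count of 0 could not change under them. The completed tests behind these counts were 3 for E11.5 over E9.5, 2 for E13.5m over E11.5, 1 for E13.5f over E11.5 and 1 for E13.5m minus E13.5f. Of the pathway list genes in Tet1-KO, 11 were called at a threshold of 0.01 and 18 at 0.05. Among the ratios of the 6 genes, centring turned the sign of 1, Dnmt1 in Tet1-KO, which was 0.062 after it and -0.32 before. A pseudocount of 0.1 in place of 1 changed the sign of none of them. No paired analysis was possible because the files hold 1 pooled value per group, and leaving out single libraries was not run for the same reason. Depth, and so the precision of low levels such as those of Dnmt3l, is unknown.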
